A study of Mus musculus with 12 samples.

Results

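Clustered protocadherins are cadherin-like adhesion molecules encoded by tandem gene arrays of the alpha, beta and gamma clusters. All genes whose symbol places them in one of these clusters were taken, with no filter on expression, which gave 58 of the 24490 genes listed. They comprised 12 alpha members (Pcdha1 to Pcdha12), 22 beta members (Pcdhb1 to Pcdhb22), 12 gamma A members, 7 gamma B members and 5 C-type members, of which 2 lie in the alpha and 3 in the gamma cluster. RNA was sequenced from dorsal root ganglia (DRG) of adult male C57Bl/6 mice in 3 preparations with 4 samples each. Intact DRG came from 1 mouse per sample and were frozen whole, without enzymes. Unsorted samples were the acutely dissociated ganglia of 2 pooled mice each, and MACS-sorted samples were dissociated cells of 8 pooled mice each, from which cells bound by antibodies against non-neuronal cells had been held back on a magnetic column. The labels name no treatment, and RNA was taken from cells or ganglia that had not been cultured. Expression is given as FPKM, fragments counted per length of transcript and per number of mapped fragments, so that levels can be compared between genes. The step between the lowest FPKM values of single-exon genes placed the depth at 16780000 to 20000000 mapped fragments in intact DRG, 16060000 to 18920000 in the unsorted and 13900000 to 17560000 in the MACS-sorted group. These depths are estimates that assume fragments of 200 bases.

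Most clustered protocadherins form contacts with identical molecules on a neighbouring cell, and a neuron's combination of isoforms acts as a label by which its branches tell self from non-self. In the alpha and gamma clusters, every member has its own promoter and a large variable first exon that is spliced to constant exons shared by the whole cluster, while beta members consist of a single exon. Most promoters are chosen at random in each neuron with the help of CTCF and cohesin, whereas C-type promoters are used more uniformly, so that a bulk sample averages over many different choices.

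The members lie on chromosome 18 of mm10 between 36930285 and 37841872, alpha first, then beta, then gamma. In the GENCODE annotation of the same build, 3 constant exons of the alpha cluster (59, 89 and 2712 bases, ending at 37187657) and 3 of the gamma cluster (59, 89 and 1971 bases) follow the variable exons. In the 11 alpha transcripts matched, 53.1% to 96.5% of 100-base windows also occurred in a transcript of another gene, against 40.7% to 64.0% for gamma A, 43.9% to 50.1% for gamma B, 47.8% and 51.9% for Pcdhac2 and Pcdhac1, 44.1% for Pcdhgc3, 17.4% for Pcdhgc5, and 0% to 7.73% for beta members. A read from a constant exon belongs to no single member, so levels of alpha and gamma members are estimates that depend on how the authors' software divided such reads.

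Of the 58 members, 33 were listed at 0 in all 12 samples. They were all 12 Pcdha genes, all 12 Pcdhga genes, all 7 Pcdhgb genes, Pcdhgc4 and Pcdhgc5. Across the whole table, 25.5% of genes were listed at 0 in every sample, and among the 216 other genes that shared an end but not a start with another gene the share was 70.8%. The Ugt1a genes, another family of variable first exons joined to constant exons, had 6 of 8 genes listed at 0 throughout. An exact 0 can be a failed estimate where gene models overlap, and these values do not show that the 33 members lacked reads. Every value above 0 in the alpha and gamma clusters therefore stood on Pcdhac1, Pcdhac2 and Pcdhgc3, and the variable alpha, gamma A and gamma B isoforms could not be followed.

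The preparations were checked against marker genes before members were compared. Satellite glia markers (8 genes, the most abundant being Apoe) averaged a sum of 1958 FPKM in the intact group, 2607 FPKM in the unsorted group and 135 FPKM after sorting (117, 90.1, 129 and 205 FPKM in the MACS-sorted replicates 1 to 4), and all 8 fell from unsorted to MACS-sorted in limma. Glul alone had a mean of 100.3 FPKM after sorting and a log2-fold change of −0.58. The other satellite glia markers had log2-fold changes from −7.02 (Apoe) to −5.19 (Slc1a3). Markers of large-diameter neurons (6 genes, led by Nefh) averaged sums of 635, 891 and 102 FPKM in intact, unsorted and MACS-sorted samples (131, 68.0, 111 and 100.0 FPKM in the single MACS-sorted samples), and all 6 fell. Of 7 Schwann cell markers, 6 fell. Of 7 fibroblast markers, led by Dcn, 5 of 6 tested fell, with mean sums of 645, 266 and 15.5 FPKM and single MACS-sorted sums of 7.62, 8.01, 13.9 and 32.4 FPKM. The 6 macrophage markers, led by Csf1r, had mean sums of 17.1, 7.86 and 1.10 FPKM, and each had a mean under 0.5 FPKM after sorting. Of the 6 endothelial markers, led by Cldn5, 0 passed in limma between MACS-sorted and unsorted samples (also 0 at an unadjusted p under 0.05), with sums of 50.4, 11.4, 44.0 and 68.1 FPKM in the MACS-sorted samples, replicates 1 to 4. Among 8 small-diameter nociceptor markers, led by Prph, 7 rose in MACS-sorted against unsorted samples and the sum went from 2487 to 3518 FPKM. The 8 pan-neuronal markers, led by Uchl1, had mean sums of 2984, 3689 and 3583 FPKM, and from unsorted to MACS-sorted 4 of them rose while Snap25 (log2-fold change −0.94) and Tubb3 (−0.38) fell. MACS-sorted replicate 4 stood apart within its group, with the highest sums of satellite glia, Schwann cell, fibroblast, macrophage (2.38 FPKM), endothelial and red blood cell markers and the lowest of pan-neuronal markers (3155 FPKM). Its nociceptor sum was also the lowest of the group, at 2880 FPKM against 3375 to 3971 FPKM. Red blood cell markers, led by Hbb-bs, summed to 1678, 2532, 12538 and 15360 FPKM in the single MACS-sorted samples, against means of 439 FPKM in intact and 263 FPKM in unsorted DRG, and all 7 listings tested rose after sorting. Intact replicate 1 had a summed FPKM over all genes of 345341, above the 283676 to 293648 of the other intact samples. It also had the highest intact sums of nociceptor (3142 FPKM against 2286 to 2486), large-diameter neuron (764 against 569 to 633), satellite glia (2105 against 1781 to 1985), Schwann cell, fibroblast (948 against 499 to 591), macrophage (25.8 against 13.1 to 15.2) and red blood cell markers (737 against 266 to 396), and the lowest of pan-neuronal markers (2832 against 2911 to 3136). Single genes carried the first 2 of these sums. The highest intact value was 1815 FPKM for the nociceptor marker Calca (group mean 1181) and 441 FPKM for the large-diameter marker Pvalb (group mean 158). The list sums allow both values only in replicate 1, so the other markers of these lists need not be highest in it. Pcdhac1, Pcdhac2, Pcdhgc3 and the sum of beta members were lowest in intact replicate 1 among intact samples. In bulk RNA, fewer cells of a type and less RNA per cell cannot be told apart.

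Pcdhac2, a C-type member at the end of the alpha cluster (37143969 to 37187657), had the highest mean FPKM of all members in intact and unsorted DRG. Its FPKM was 34.4, 43.1, 41.3 and 40.4 in intact replicates 1 to 4, 56.5, 57.8, 57.7 and 58.4 in unsorted replicates 1 to 4, and 56.8, 51.2, 52.4 and 41.8 in MACS-sorted replicates 1 to 4. All unsorted samples lay above all intact samples, and MACS-sorted replicate 4 was the lowest of its group and lay among the intact values. The means were 39.8 ± 3.78, 57.6 ± 0.817 and 50.6 ± 6.30 FPKM (SD, n = 4 each).

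Pcdhac1, the other C-type member of the alpha cluster (37090136 to 37187657), was at 23.2, 27.4, 27.4 and 25.0 FPKM in intact replicates 1 to 4 and at 38.9, 38.3, 36.6 and 38.5 FPKM in unsorted replicates 1 to 4. It was listed at 0 in all 4 MACS-sorted samples. In the other 8 samples its FPKM was 0.619 to 0.690 times that of Pcdhac2. The 2 genes end at the same base and share their constant exons, so the division of reads between them was not observed. Their summed FPKM was 65.5 ± 5.69 in the intact group, 95.7 ± 1.10 in the unsorted group and 50.6 ± 6.30 after sorting (SD, n = 4 each). In the whole table, 6 genes were listed at 0 in all MACS-sorted samples and above 5 FPKM in all unsorted samples.

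Pcdhgc3, the C-type member of the gamma cluster with a value (37806410 to 37841872), was at 31.1, 31.5, 31.9 and 33.9 FPKM in intact replicates 1 to 4, at 44.9, 45.2, 44.8 and 44.3 FPKM in unsorted replicates 1 to 4 and at 63.4, 56.0, 58.7 and 44.8 FPKM in the MACS-sorted samples, replicates 1 to 4. The intact samples lay below all others. MACS-sorted replicates 1 to 3 lay above every unsorted sample, and replicate 4 lay within the unsorted range. Pcdhgc3 had 0.732 to 0.906 times the FPKM of Pcdhac2 in intact and 0.758 to 0.796 times that in unsorted samples, and 1.07 to 1.12 times in MACS-sorted samples, without overlap between MACS-sorted samples and the others.

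**Figure D1:**
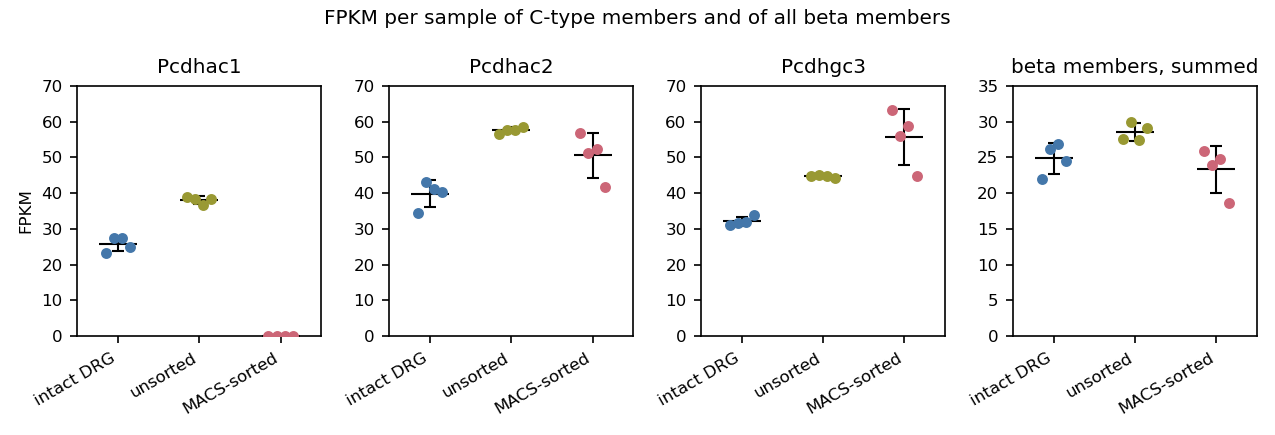
FPKM of Pcdhac1, Pcdhac2, Pcdhgc3 and of the 22 beta members summed, with 1 point per sample, replicates 1 to 4 from left to right within each group, and the mean and SD as a bar with whiskers. Unsorted samples lie above intact samples for each C-type member shown. Pcdhac1 is listed at 0 in MACS-sorted samples, and MACS-sorted replicate 4 is the lowest of its group in the other 3 panels.

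All 22 beta members had a value above 0 in some sample. Their levels were far under those of Pcdhac2, Pcdhgc3 and, in intact and unsorted samples, Pcdhac1. The levels of these C-type members depend on how reads from constant exons were divided, so the comparison is not of like with like. The FPKM of the beta members summed to 21.99, 26.2, 26.9 and 24.4 in intact replicates 1 to 4, to 27.6, 30.0, 27.5 and 29.2 in unsorted replicates 1 to 4 and to 25.9, 23.98, 24.8 and 18.6 in MACS-sorted replicates 1 to 4. All unsorted sums lay above all intact and MACS-sorted sums, while the intact and MACS-sorted sums overlapped. No beta member reached a mean of 5 FPKM in any group. A mean of at least 1 FPKM was found for 9 beta members in intact DRG, 14 in the unsorted and 7 in the MACS-sorted group. Over all 58 members these counts were 12, 17 and 9, and quantile normalization made them 7, 12 and 17, an alternative for these counts that was chosen after seeing the data. At the estimated depth the median beta member rested on about 58.6, 63.5 and 45.5 fragments per sample in the 3 groups, for which counting error alone is 13.1% in intact and 14.8% in MACS-sorted samples.

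Pcdhb17 and Pcdhb9 led the cluster in each preparation. Pcdhb17 had 2.95 ± 0.408 FPKM in intact DRG, 3.08 ± 0.333 FPKM in the unsorted and 3.21 ± 0.244 FPKM in the MACS-sorted group (SD, n = 4 each), and the groups overlapped. Pcdhb9 was at 3.20, 2.78, 2.902 and 2.82 FPKM in intact replicates 1 to 4, at 3.69, 4.23, 4.10 and 3.92 FPKM in unsorted replicates 1 to 4 and at 4.18, 2.97, 2.84 and 1.90 FPKM in the MACS-sorted samples, replicates 1 to 4. Its unsorted samples lay above its intact samples, whereas the MACS-sorted samples ran from below the intact range into the unsorted range. Pcdhb22 and Pcdhb20 came next, with means of 2.19 and 2.04 FPKM in intact, 2.35 and 2.31 FPKM in unsorted and 1.97 and 1.82 FPKM in MACS-sorted samples. These 4 genes took 40.6%, 41.1% and 42.8% of the beta sum in the 3 groups.

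Pcdhb10 was at 1.06, 1.26, 1.35 and 1.26 FPKM in intact replicates 1 to 4, at 1.47, 1.32, 1.499 and 1.57 FPKM in unsorted replicates 1 to 4 and at 0.926, 0.660, 0.966 and 0.483 FPKM in the MACS-sorted samples, replicates 1 to 4. Every MACS-sorted sample lay below every sample of the other groups. Pcdhb5 had its highest mean in MACS-sorted samples, 1.41 ± 0.475 FPKM, against 0.967 ± 0.198 in unsorted and 0.939 ± 0.0802 in intact samples (SD, n = 4 each), with MACS-sorted replicate 4 at 0.846 FPKM inside the range of the others. Against unsorted samples Pcdhb5 did not pass (adjusted p = 0.204 from limma). It passed as higher in 2 of 19 alternatives, with quantile normalization and without MACS-sorted replicate 4. Pcdhb7 averaged 0.950, 1.12 and 0.556 FPKM in intact, unsorted and MACS-sorted samples, and its MACS-sorted samples, from 0.122 to 0.926 FPKM, all lay below its unsorted samples, the lowest of which was at 0.929 FPKM. With a mean under 1 FPKM over those 8 samples, Pcdhb7 was left out of that comparison, and without that filter it did not pass in limma. Pcdhb14 averaged 1.12, 1.32 and 0.827 FPKM in that order, with MACS-sorted samples from 0.423 to 1.40 FPKM that overlapped with both other groups.

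For the other beta members with a mean of at least 1 FPKM in some group, the samples of the 3 groups overlapped. Pcdhb4 averaged 1.09, 1.21 and 1.20 FPKM in intact, unsorted and MACS-sorted samples, Pcdhb12 0.949, 1.10 and 1.12 FPKM, and Pcdhb13 0.845, 1.02 and 0.926 FPKM. For Pcdhb16 the means were 1.08, 1.35 and 0.911 FPKM, for Pcdhb18 1.08, 1.26 and 0.974 FPKM, for Pcdhb19 0.997, 1.06 and 0.813 FPKM, and for Pcdhb21 0.983, 1.06 and 0.991 FPKM. Pcdhb16 had the widest gap among these 7 genes, with a log2-fold change of −0.54 between MACS-sorted and unsorted samples that did not pass (adjusted p = 0.0946 from limma). It passed as lower in 2 of 19 alternatives, without the intensity trend and without MACS-sorted replicate 1. Pcdhb2, Pcdhb3, Pcdhb6, Pcdhb8, Pcdhb11 and Pcdhb15 had means from 0.339 to 0.921 FPKM. Pcdhb1, at the start of the cluster, was listed at 0 in every unsorted and MACS-sorted sample and in 2 intact samples, with a mean of 0.0170 FPKM in intact DRG.

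The order of the 22 beta members by mean FPKM was much alike in the 3 preparations. Across genes, Spearman's rho was 0.976 between intact and unsorted, 0.799 between unsorted and MACS-sorted and 0.822 between intact and MACS-sorted means. Members nearer the gamma cluster had the higher levels, with a rho between start position and mean FPKM of 0.575 in intact DRG, 0.560 in the unsorted and 0.513 in the MACS-sorted group (22 genes each). The rho with GC content was −0.37, −0.28 and −0.24 in the same order. Genes measured in the same libraries are not independent replicates, and these values are a description. Beta members could be told apart by sequence for the most part. Pcdhb21 and Pcdhb22 shared the most, with 7.73% and 5.47% of their 100-base windows in common with each other, which makes their levels less certain. The extent was not tested, since the matched transcripts (4705 and 6609 bases) are longer than the genes as listed (2712 and 3067 bases).

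**Figure D2:**
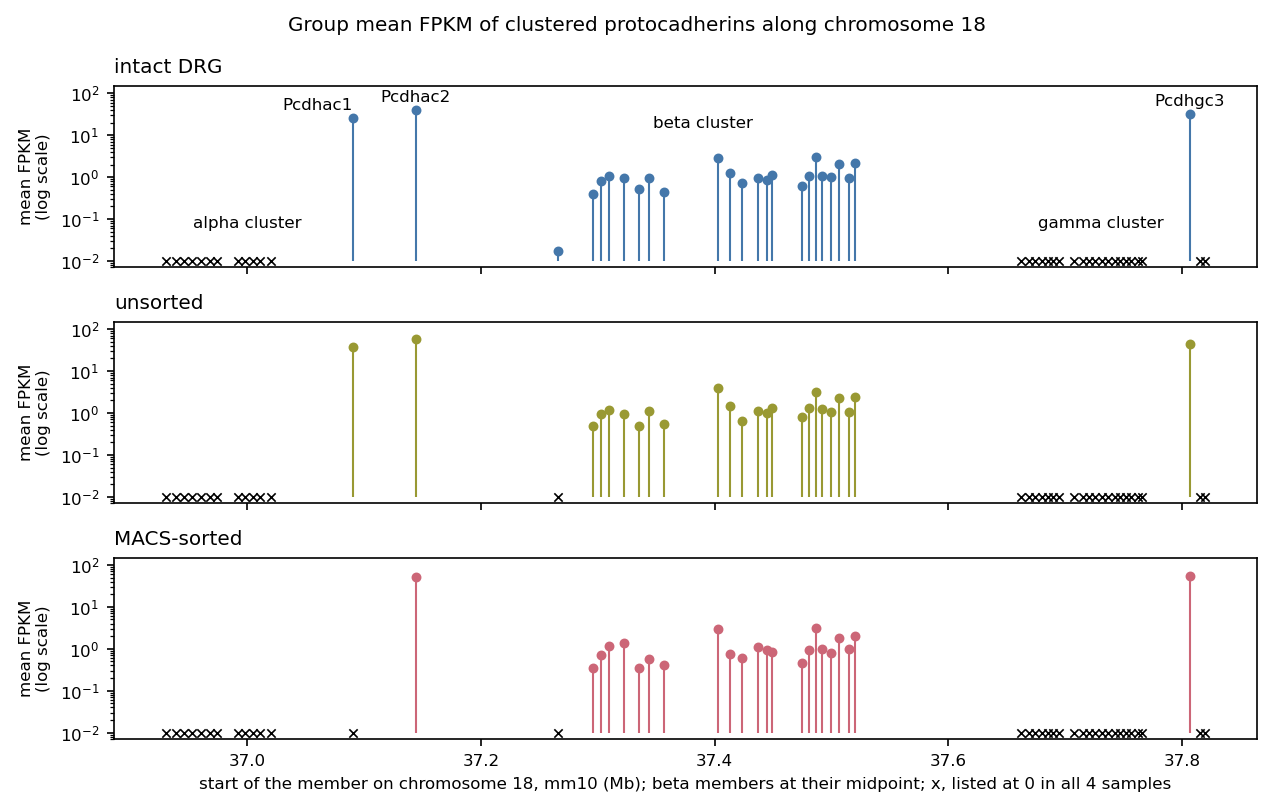
Mean FPKM (log scale, n = 4 samples per group) of the 58 members against position on chromosome 18 of mm10, with crosses for members listed at 0 in all 4 samples of a group. Values above 0 stand on the beta cluster and on Pcdhac1, Pcdhac2 and Pcdhgc3, and Pcdhac1 turns into a cross in MACS-sorted samples.

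Unsorted and intact DRG were compared to see what dissociation does to the ganglion's RNA. Of 16 members tested, the 4 with adjusted p under 0.05 in limma were all higher in unsorted samples and 0 were lower (4 and 0 at an unadjusted p under 0.05). Over all 12392 genes tested, 14.8% were higher and 7.79% lower, 22.5% in all. That share was 12.8% to 14.6% without any 1 of the unsorted samples or without intact replicate 4, and 35.7% without intact replicate 1, while 4 members were called each time. The genes called were Pcdhac1, Pcdhac2, Pcdhgc3 and Pcdhb9, and for each of them all unsorted samples lay above all intact samples. Such separation was also seen for genes that did not pass, among them Pcdh7, Pcdh17, Dnmt1 and Snap25. Its share over all genes was not counted. On the log2(FPKM + 0.1) scale, where the added 0.1 shrinks changes at low levels, Pcdhac1 rose by 0.57 (standard error 0.073, adjusted p = 0.00253 from limma, two-sided) and Pcdhac2 by 0.54 (standard error 0.079, adjusted p = 0.00379). Pcdhgc3 rose by 0.48 (standard error 0.058, adjusted p = 0.002 from limma) and Pcdhb9 by 0.43 (standard error 0.086, adjusted p = 0.0103). The study also asks for group means more than 0.5 apart as a log2 ratio, the higher of them over 5 FPKM, and by these criteria Pcdhac1 and Pcdhac2 were called, beside 7.04% of all genes. The 13 beta members tested had log2-fold changes from 0.06 to 0.43 with a median of 0.19, and the median over all genes tested was 0.01. Of these, Pcdhb19 and Pcdhb21 turned below 0 without intact replicate 1, and Pcdhb17 without intact replicate 4. Pcdhb7, Pcdhb12, Pcdhb19 and Pcdhb21 reached the filter at a mean of 1 FPKM over both groups only through their unsorted samples. Among beta members left out by that filter, Pcdhb1, Pcdhb6 and Pcdhb11 had lower means in unsorted than in intact samples. Pcdhb2, Pcdhb3, Pcdhb5, Pcdhb8, Pcdhb13 and Pcdhb15 had higher ones. Not all calls were equally firm. Pcdhac1, Pcdhac2 and Pcdhgc3 had an adjusted p of at most 0.0207 in limma in each alternative fit that tested them. With all 12 samples fitted together, Pcdhb9 had an adjusted p of 0.13 from limma, and over its alternatives the adjusted p ran from 0.00217 to 0.13. Between the same groups all 6 endothelial markers rose, from a mean sum of 22.1 to 45.9 FPKM. Of the other lists, 4 of 6 large-diameter neuron, 4 of 8 pan-neuronal, 3 of 8 satellite glia and 2 of 8 nociceptor markers rose, 6 of 7 fibroblast and 4 of 6 macrophage markers fell, and 0 of 7 Schwann cell and 0 of 5 tested red blood cell markers passed. Their part in these results was not tested.

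MACS-sorted and unsorted samples were compared to see what the removal of antibody-bound cells does to the RNA of dissociated ganglia. Of 15 members tested, 1 was higher (18.8% of all 12038 genes tested) and 2 were lower (27.7%) in MACS-sorted samples at an adjusted p under 0.05 in limma. By the study's criteria 1 member was called, against 20.7% of all genes. That member was Pcdhac1, listed at 0 in MACS-sorted samples, for which no fold is given, and that 0 can be a failed estimate. Without it, 1 member was higher and 1 lower. Pcdhb10 fell by 0.90 (standard error 0.25, adjusted p = 0.0137 from limma), with all 4 MACS-sorted samples below all 4 unsorted samples. It was tested only because of its unsorted samples, with means of 1.46 FPKM there and 0.759 FPKM after sorting. Quantile normalization gave Pcdhb10 a log2-fold change of −0.29 with an adjusted p of 0.403, and the adjusted p ran from 0.00376 to 0.403 over its alternatives. Pcdhgc3 rose by 0.30 (standard error 0.099, adjusted p = 0.0309 from limma), and all MACS-sorted samples but replicate 4 exceeded every unsorted sample. This call was not stable. Of 8 limma fits that each left out 1 sample, Pcdhgc3 passed the test in 1, that without MACS-sorted replicate 4 (adjusted p = 4.3e-04), and in the other 7 its adjusted p reached up to 0.078. Nor did it pass without the intensity trend or with unsorted replicates 1 and 2 averaged. Over all alternatives its log2-fold change stayed between 0.24 and 0.41.

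Pcdhac2 had a log2-fold change of −0.20 between MACS-sorted and unsorted samples (standard error 0.090, adjusted p = 0.103 from limma) and did not pass. Of the 12 beta members tested, 9 had a log2-fold change below 0 and 3 above 0, from −0.90 to 0.46 with a median of −0.29, beside a median of −0.04 over all genes tested. Among the 9, Pcdhb10, Pcdhb14, Pcdhb16, Pcdhb18 and Pcdhb21 reached the filter at a mean of 1 FPKM over both groups only through their unsorted samples. Pcdhb5, above 0, reached it only through its MACS-sorted samples, so the filter entered into this split. Beta members left out by the filter, Pcdhb1 aside, also had lower means in MACS-sorted than in unsorted samples. Quantile normalization turned 6 of the 9 above 0, and it moved the median over all genes from −0.04 to 0.10. Size factors and the removal of haemoglobin genes turned only Pcdhb4. Quantile normalization also called 3 members higher and 1 lower, beside 55.7% of all genes in either direction. Single samples weighed on the count as well. Without MACS-sorted replicate 1, 7 members were lower and 0 higher, beside 45.2% of all genes in either direction (46.5% with all samples), among them Pcdhac2, Pcdhb9, Pcdhb14, Pcdhb16 and Pcdhb20. That sample had the highest FPKM of its group for each of these 5 genes. In the same comparison all 8 satellite glia, 6 of 7 Schwann cell, 5 of 6 tested fibroblast and all 6 large-diameter neuron markers fell, and their part in the members' differences was not tested.

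**Figure D3:**
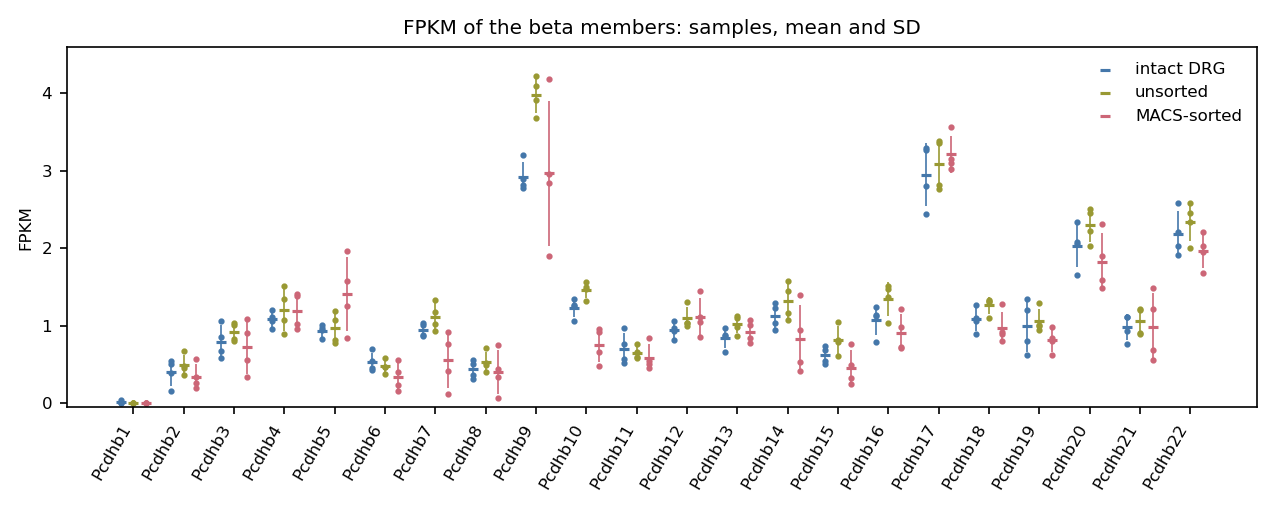
FPKM of the 22 beta members in intact DRG, unsorted and MACS-sorted samples, with 1 dot per sample, a dash for the mean and a line for the SD (n = 4 per group). The means of Pcdhb9, Pcdhb17, Pcdhb20 and Pcdhb22 stand above those of the rest in each group, though single dots of Pcdhb5 reach among them in MACS-sorted samples, and for Pcdhb10 the MACS-sorted dots lie below all others.

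MACS-sorted and intact samples share their groups with the other comparisons and are given for the full span from whole ganglion to sorted cells. Of 11 members tested, 2 were higher (14.1% of all 12234 genes tested) and 1 was lower (20.6%) in MACS-sorted samples at an adjusted p under 0.05 in limma. Pcdhgc3 rose by 0.78 (standard error 0.11, adjusted p = 5.9e-04 from limma), with all MACS-sorted samples above all intact samples, and its adjusted p was at most 0.00401 over its alternatives. Pcdhac2 rose by 0.34 (standard error 0.12, adjusted p = 0.0477 from limma), with overlapping groups. The sum of Pcdhac1 and Pcdhac2 was lower in MACS-sorted than in intact samples (50.6 against 65.5 FPKM), and how reads were divided between these genes was not tested. This call was not stable either. Of 8 limma fits that each left out 1 sample, Pcdhac2 passed the test in 1, that without MACS-sorted replicate 4 (adjusted p = 0.0111), and in the other 7 its adjusted p reached up to 0.126. Nor did it pass with a replicate block, without the intensity trend, with quantile normalization or with a filter at a mean of 5 FPKM. Quantile normalization called 5 members higher and 1 lower here, beside 42.0% of all genes in either direction (34.8% as deposited). The member that was lower was Pcdhac1, whose listing at 0 can be a failed estimate, and without it 2 members were higher and 0 lower. By the study's criteria Pcdhac1 and Pcdhgc3 were called, beside 18.3% of all genes. The 8 beta members tested were split, with 4 log2-fold changes above and 4 below 0, and 0 were called in limma (also 0 at an unadjusted p under 0.05). That count was not stable, since quantile normalization called Pcdhb4, Pcdhb5, Pcdhb12 and Pcdhb17 higher, and Pcdhb5 was also called without MACS-sorted replicate 4. With quantile normalization, the other 4, Pcdhb9, Pcdhb18, Pcdhb20 and Pcdhb22, turned from below to above 0. Pcdhb5 and Pcdhb12 reached the filter at a mean of 1 FPKM only through their MACS-sorted samples, and Pcdhb18 only through its intact samples. Pcdhb10, with all MACS-sorted samples below all intact samples, had a mean under 1 FPKM over those 8 samples and was left out here, and without that filter it did not pass in limma. Between MACS-sorted and intact samples 7 of 8 satellite glia, all 7 Schwann cell, all 7 fibroblast, 4 of 4 tested macrophage and 5 of 5 tested large-diameter neuron markers fell, 6 of 8 nociceptor, 6 of 8 pan-neuronal and 7 of 7 tested red blood cell marker listings rose, Snap25 of the pan-neuronal list fell (−0.64), and their part was not tested.

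Non-clustered protocadherins, which lie outside these arrays and have no variable exons, were a point of comparison in the same family. Of 12 genes, 7 could be tested for the effect of sorting, MACS-sorted against unsorted, where 6 were lower and 0 higher in limma (6 and 0 at an unadjusted p under 0.05), beside 27.7% and 18.8% of all genes. Of the 5 not tested, Pcdh11x (0.695 to 0.187 FPKM), Pcdh19 (1.035 to 0.440 FPKM) and Pcdh20 (0.086 to 0.0056 FPKM) were lower and Pcdh12 (0.490 to 0.788 FPKM) was higher in every MACS-sorted sample than in any unsorted one, and Pcdh15 overlapped. These levels are low, and the share of all genes without overlap was not counted, so no difference is read from them. Among the 7 tested genes Pcdh7 fell most, from 13.3 to 1.16 FPKM (log2-fold change −3.49, adjusted p = 5.5e-06 from limma), followed by Pcdh18 (−2.62), Pcdh9 (−2.49), Pcdh10 (−1.84), Pcdh8 (−1.80) and Pcdh17 (−1.50). Pcdh1 was at 17.0 FPKM in unsorted and 17.6 FPKM in MACS-sorted samples and did not pass. Between unsorted and intact DRG, 4 of 8 tested were higher and 0 lower in limma (5 and 0 at an unadjusted p under 0.05), beside 14.8% and 7.79% of all genes, namely Pcdh8 (1.02), Pcdh10 (0.73), Pcdh9 (0.63) and Pcdh1 (0.56). The 12 genes summed to 34.3 FPKM in intact replicate 1, apart from 55.4 to 58.5 FPKM in the other intact samples, and these calls were not tested without it. Of 6 tested between MACS-sorted and intact samples, 4 were lower, Pcdh7 (−3.08), Pcdh18 (−2.34), Pcdh9 (−1.85) and Pcdh10 (−1.11), and Pcdh1 was higher (0.61), beside 20.6% and 14.1% of all genes. For MACS-sorted against unsorted, the median log2-fold change was −1.84 for the 7 non-clustered genes and −0.22 for the 14 clustered members tested that had values in both groups, beside −0.04 over all genes tested, and the difference between the families was not tested.

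Regulators of protocadherin promoter choice include Ctcf, which encodes the insulator protein that binds these promoters, and the cohesin subunits Rad21, Smc1a, Smc3, Stag1 and Stag2. Of 14 genes, 13 were tested in each comparison, and Dnmt3b was not, with means of 0.0855, 0.123 and 0.0531 FPKM in the 3 preparations. Between MACS-sorted and unsorted samples 1 was higher, Wiz, a zinc finger protein (log2-fold change 0.44, adjusted p = 0.00288 from limma), and 12 did not pass, where 18.8% of all genes were higher and 27.7% lower. Between unsorted and intact DRG 1 was lower, the DNA methyltransferase Dnmt3a (−0.53, adjusted p = 0.0199 from limma), and 12 did not pass, where 14.8% of all genes were higher and 7.79% lower. Between MACS-sorted and intact samples Wiz (0.62) and the maintenance methyltransferase Dnmt1 (0.60) were higher and Dnmt3a (−0.51) was lower, where 14.1% of all genes were higher and 20.6% lower. Ctcf was at 8.71, 9.56 and 9.27 FPKM in intact, unsorted and MACS-sorted samples, and did not pass in any comparison. The 14 genes summed to 116 FPKM in intact replicate 1, apart from 141 to 146 FPKM in the other intact samples. Calls of this list against intact DRG were not tested without that replicate.

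Partners and processing enzymes were the third list. It holds the kinases Ptk2, Ptk2b and Fyn, the receptor tyrosine kinase Ret, the sheddase Adam10, the secretase subunit Ncstn and genes of the WAVE actin-regulating complex. Of 16 genes, all tested for MACS-sorted against unsorted, 2 were higher and 9 lower, beside 18.8% and 27.7% of all genes. The 6 largest differences were Nlgn1 (log2-fold change −3.57), Ptk2b (−2.13), Phldb2 (−1.22), Cyfip1 (−0.83), Ret (0.74) and Adam10 (−0.67). Between unsorted and intact DRG 9 were higher and 0 lower in limma (10 and 0 at an unadjusted p under 0.05), beside 14.8% and 7.79% of all genes, led by Ptk2b (0.77), Nlgn1 (0.69), Cyfip2 (0.61), Wasf1 (0.58) and Ncstn (0.45). Between MACS-sorted and intact samples 5 of 15 were higher and 4 lower, beside 14.1% and 20.6% of all genes, led by Phldb2 (−1.53), Ptk2b (−1.36), Ret (1.09), Cyfip2 (0.77), Cyfip1 (−0.69) and Adam10 (−0.69). Ret also belongs to the small-diameter nociceptor markers. The 16 genes summed to 399 FPKM in intact replicate 1, apart from 447 to 461 FPKM in the other intact samples. In MACS-sorted replicate 4 they summed to 527 FPKM, apart from 608 to 641 FPKM in the others of its group. The calls of this list were not tested without either sample.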

How the data were processed

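The authors aligned reads of polyA-selected RNA to mm10 with TopHat2, merged lanes with SAMtools and estimated expression with Cufflinks 2.1.1. The deposited FPKM were used as given, and the totals by which the authors divided were not changed. All 12 samples were used and grouped by their labels. For each comparison, limma 3.58.1 under R 4.3.3 was fitted to log2(FPKM + 0.1) of its 8 samples with a trend in the prior variance. Tests were two-sided, and p was adjusted by Benjamini-Hochberg over every gene whose mean reached 1 FPKM there. CuffDiff, used in the study, needs the reads and was replaced by limma. Depth was estimated from steps between low FPKM values of 851 single-exon genes at a fragment length of 200 bases, which made 95.0% to 100% of the values used whole to within 0.1 fragments. Starts were shifted to count from 1. Shared 100-base windows came from GENCODE transcripts. Members with a mean of at least 1 FPKM in any group were named, and up to 6 genes per list that passed, by size of change. Values of some genes are left out of the text, and these genes stay in the counts. The members and lists were chosen with earlier results of these data known. Alternatives were other pseudocounts and filters, all 12 samples in a joint fit, a replicate block, no trend, size factors, quantile normalization, removal of haemoglobin genes and omission of each sample. Wapl is listed as Wapal. Unsorted replicates 1 and 2 were much alike and were kept as 2 samples, with their average as an alternative.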

Additional observations from a re-analysis of the deposited data

Results flagged for a closer look

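Among 75 sets of 4 samples, 1 for each member or beta sum in each group with differing values, 2 held a sample far from the other 3, where chance gives about 1 in 20 sets. Pcdhb12 was at 1.31 FPKM in unsorted replicate 1, while its other unsorted samples lay at 1.00 to 1.04 FPKM. Pcdhb18 was at 1.10 FPKM in unsorted replicate 4, while its other unsorted samples lay at 1.31 to 1.34 FPKM. Neither gene passed in a comparison of the values as deposited, while quantile normalization called Pcdhb12 higher in MACS-sorted than in intact samples (adjusted p = 0.0179 from limma). The cause was not tested.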

How the results depend on the processing

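The 4 samples of a group limit precision, and beta members rest on few fragments. Leaving out 1 sample gave 2 to 7 members differing between MACS-sorted and unsorted samples (3 with all samples), 4 to 4 between unsorted and intact (4) and 2 to 4 between MACS-sorted and intact samples (3), beside 39.4% to 50.4%, 12.8% to 35.7% and 27.2% to 38.6% of all genes. The study's criteria left 1 member in the first comparison and 2 in the second. Quantile normalization gave 6 members in the third, and 7 members in intact and 17 in MACS-sorted samples at a mean of 1 FPKM or more, against 12 and 9 as deposited. It moved the median over all genes in the third comparison from −0.04 to 0.12. With a replicate block the numbers differing were 3, 4 and 2, beside 43.0%, 18.5% and 29.3% of all genes (46.5%, 22.5% and 34.8% without it). Same-numbered samples correlated at −0.14 to 0.067 in their deviations from group means, which gives no sign of pairing by number. The labels do not say whether same-numbered samples shared a preparation.

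No member that passed the test turned its direction in these alternatives, but Pcdhgc3 (MACS-sorted against unsorted) passed in 11 of 20 that tested it and Pcdhac2 (MACS-sorted against intact) in 8 of 19. Pcdhb10 passed in 18 of 19, all but quantile normalization. Log2-fold changes between MACS-sorted and unsorted samples of genes that did not pass turned to 0.23 (Pcdhb18), 0.13 (Pcdhb20), 0.56 (Pcdhb4), 0.056 (Pcdhb16), 0.43 (Pcdhb21) and 0.21 (Pcdhb22) with quantile normalization, and for Pcdhb4 to 0.051 with size factors, 0.039 without haemoglobin genes and 0.0049 without MACS-sorted replicates 3 and 4, an alternative chosen after seeing the data. Between MACS-sorted and intact samples they turned to 0.67 (Pcdhb18), 0.48 (Pcdhb20), 0.41 (Pcdhb9) and 0.46 (Pcdhb22) with quantile normalization, and for Pcdhb9 to 0.028 with size factors, 0.020 without haemoglobin genes and 0.26 without MACS-sorted replicates 3 and 4. Leaving out 1 sample gave −0.13 to 0.10 (Pcdhb4), −0.11 to 0.12 (Pcdhb12) and −0.23 to 0.048 (Pcdhb21) between MACS-sorted and unsorted, −0.0095 to 0.16 (Pcdhb21), −0.054 to 0.23 (Pcdhb19) and −0.019 to 0.12 (Pcdhb17) between unsorted and intact, and −0.20 to 0.16 (Pcdhb9) between MACS-sorted and intact samples. The cause was not tested.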
